A study of Mus musculus with 24 samples.

Results

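Of 24 RNA sequencing libraries of mouse dorsal hippocampus, 6 held more than 1000 RPKM (reads per kilobase, relative to the depth of the library) of Ttr, the transcript of transthyretin, a thyroxine carrier that choroid plexus epithelium secretes. The other 18 held less than 300 RPKM. The 6 are called choroid plexus rich here, and they were set against the 18. They were chosen by their measured Ttr, not by a label, so all differences between the 6 and the 18 are descriptions that carry no test. Each library came from the bilateral dorsal hippocampus of 1 mouse. Of the 4 groups of 6 mice, 1 held wild-type mice of strain C57BL/6J left in their home cage. Another held wild-type mice whose tissue was collected 30 minutes after training for object location memory, in which a mouse explores objects at fixed places. Heterozygous mice with 1 targeted allele of Actl6b, the gene of the neuronal chromatin remodelling subunit BAF53b, were treated in the same ways and are called Baf53b+/-. Their strain label, B6J.129S6-Actl6b<tm1Grc>, was given for heterozygotes alone, so strain background goes with genotype. The labels name no promoter or cell type that limits the allele.

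The choroid plexus is a fold of vascular tissue in the brain ventricles. Its cuboidal epithelium secretes cerebrospinal fluid through ion channels, bicarbonate transporters and water channels, and releases carrier proteins and growth factors. The plexus of the lateral ventricle is attached beside the fimbria of the hippocampus, and its neighbours are the ciliated ependyma that lines the ventricle and, around the vessels, fibroblasts related to those of the meninges. In bulk tissue, more cells of a type and more RNA per cell cannot be told apart.

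Ttr stood at 4572 and 2600 RPKM in home cage Baf53b+/- mice 2424 and 2422, and at 2261 and 1213 RPKM in trained Baf53b+/- mice 2409 and 2429. It stood at 1555 RPKM in home cage wild-type mouse 2425 and at 1337 RPKM in trained wild-type mouse 2412. The lowest of the 6, 2429 at 1213 RPKM, and the highest of the 18, trained wild-type mouse 2407 at 288 RPKM, stand on the 2 sides of the threshold. Each Baf53b+/- group thus held 2 rich libraries and each wild-type group 1. Among the 18, Ttr ran from 7.78 RPKM over a median of 25.5 to 288 RPKM, and libraries 2407, 2436 and 2417 (288, 185 and 140 RPKM) lay well above the next, 2414 at 44.0 RPKM. In the rich libraries Ttr alone made up 0.417% to 1.55% of the summed RPKM. Depth, recovered from the steps between low values, was 31.36 to 37.09 M reads in the rich libraries and 28.44 to 46.88 M in the others, and these ranges overlap. Both sets held both sexes, since Ddx3y, a Y-linked gene, exceeded 1 RPKM in 3 of the 6 and 11 of the 18.

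The other 4 given markers were chosen with earlier results of these data known, so they describe the libraries and are no test of the label. All 4 stood higher in each of the 6 libraries than in any of the 18. Kl, which encodes the FGF23 co-receptor klotho (chromosome 5, 151755182 to 151796392, mm9), ran from 17.6 over a median of 23.1 to 43.1 RPKM in the rich libraries and from 4.44 over 6.63 to 9.54 RPKM in the others. Folr1, the folate receptor that moves folate into cerebrospinal fluid (chromosome 7, 109006845 to 109019302), ran from 8.25 over 11.8 to 25.04 RPKM against 0.137 over 0.663 to 2.06 RPKM. The ranges of each gene do not meet, though Kl was well above 0 in every library. Clic6, an intracellular chloride channel protein (chromosome 16, 92498392 to 92541486), ran from 7.64 over 13.2 to 25.1 RPKM against 0.288 over 0.706 to 2.52. Aqp1, the apical water channel of the epithelium (chromosome 6, 55286293 to 55298549), ran from 1.81 over 4.32 to 9.31 RPKM against 0.0423 over 0.113 to 0.701.

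**Figure D1:**
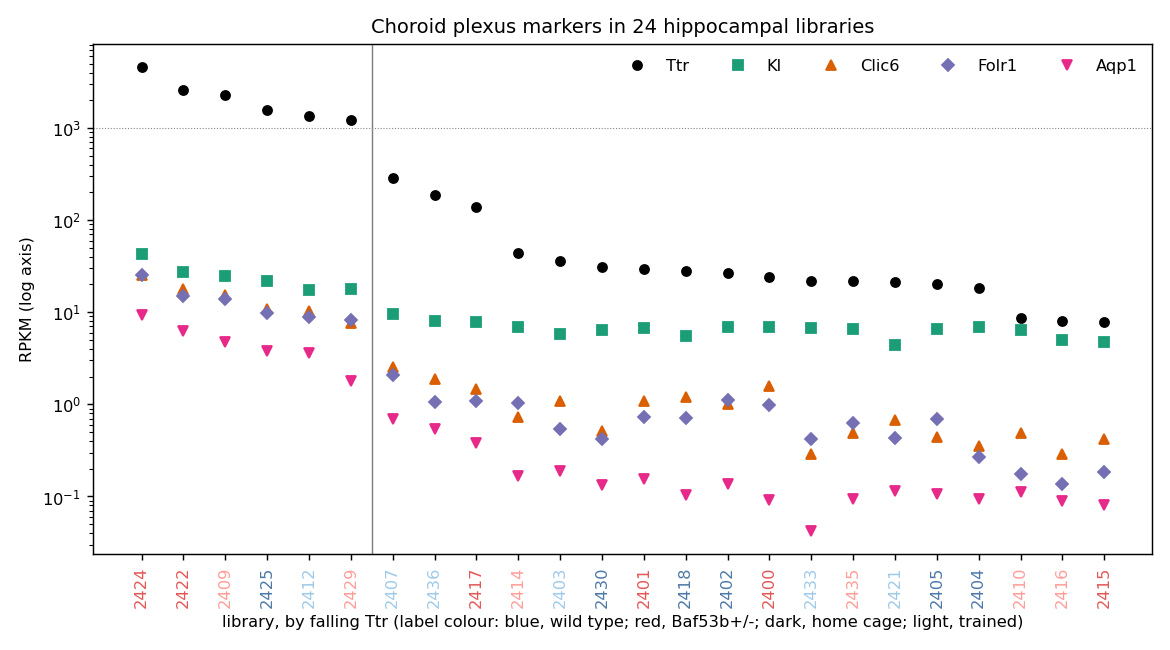
RPKM (log axis) of Ttr and the 4 other given markers in each of 24 libraries, ordered by falling Ttr, with 1 point per gene and library. The vertical line parts the 6 libraries above 1000 RPKM of Ttr (dotted line) from the 18 below 300, and libraries 2407, 2436 and 2417 lie between the bulk of the 18 and the rich ones.

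Across 13490 genes that averaged 0.5 RPKM or more in the 24 libraries, 60 (0.445%), Ttr included, were at least 1 higher in the rich libraries on the log2(RPKM + 0.5) scale, with the 4 groups as a covariate. No gene was at least 1 lower. In 163 genes (1.21%) all 6 rich libraries lay above all 18 others, and in none did all 6 lie below. Of the 60 genes, 41 would also pass the filter on the 18 other libraries alone. The remaining 19, Aqp1 and Kcne2 among them, entered only through the rich libraries and had to differ. The median difference of all genes was 0.00875, with 7525 of them positive, and -0.02, with 4888 positive, when the libraries were shifted to equal medians, so signs of small differences depend on the scaling. Choroid plexus and epithelial genes were gathered in 5 lists of 103 names, of which 102 were found and 85 tested. Of these, 37 were at least 1 higher and in 46 the 6 libraries lay above the 18, with a median difference of 0.86. Of the 85, 70 pass the filter on the 18 others alone, and the other 15 entered only through the rich libraries and had to differ. Among the 70, 23 were at least 1 higher and 31 did not overlap, with a median of 0.44. By list, 13 of 15 secreted protein genes, 7 of 7 transcription factor genes, 7 of 9 junction genes and, in a separate list, 32 of 34 ciliary genes pass on the 18 alone.

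Secreted proteins divided in the middle of their list. Of 15 tested, 8 were at least 1 higher, and the other 7 differed by 0.30 or less. Enpp2, which encodes autotaxin, the secreted enzyme that makes lysophosphatidic acid, was the most abundant of the 8. It ran from 279 over 415 to 680 RPKM in the rich libraries and from 41.9 over 68.5 to 116 RPKM in the others, a difference of 2.59 ± 0.19 (SE, n = 24). The augurin gene Ecrg4, listed as 1500015O10Rik, ran from 14.7 over 22.3 to 40.8 RPKM against 0.465 over 1.65 to 4.28 (3.45 ± 0.30). Coagulation factor F5 differed by 2.70 ± 0.19, Sostdc1, an antagonist of BMP and Wnt signals, by 2.38 ± 0.16, and the protease inhibitor gene Wfdc2 by 2.36 ± 0.15. The lipopolysaccharide-binding protein gene Lbp differed by 1.90 ± 0.24. Insulin-like growth factor 2 is released by both choroid plexus and meninges. Its gene Igf2 ran from 32.0 over 42.5 to 88.1 RPKM against 10.6 over 17.2 to 30.2 (1.41 ± 0.20), and Igfbp2, a binding protein of the same growth factors, differed by 1.29 ± 0.15. For these 8 genes the rich and other ranges did not overlap. F5 and Wfdc2 entered only through the rich libraries and had to differ. Among the 13 that pass the filter on the 18 others, 6 were at least 1 higher, with a median of 0.30. By contrast, the protease inhibitor Cst3, the lipocalin Apod and the chaperone-like Clu differed by 0.02 ± 0.04, 0.04 ± 0.15 and 0.08 ± 0.04. Cst3 ran from 1066 to 1194 RPKM in the rich libraries and from 1012 to 1191 RPKM in the others, so these ranges overlap almost wholly.

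Among receptors, enzymes and other surface proteins, 20 of 24 listed were tested and 15 were at least 1 higher, with a median of 1.804 over the 20. Of these 20, 14 pass the filter on the 18 others alone, and among those 9 were at least 1 higher, with a median of 1.26. Folr1 led them at 3.53 ± 0.26 (SE, n = 24). Tmem72, a membrane protein gene, stood between 1.71 and 6.26 RPKM in the rich libraries and at no more than 0.456 RPKM in the others (2.65 ± 0.15). Calml4, a calmodulin-like gene, differed by 2.25 ± 0.28, and the metalloreductase gene Steap1 by 2.17 ± 0.19. Prlr, the receptor for prolactin, ran from 2.21 over 2.63 to 5.30 RPKM against 0.151 over 0.282 to 0.613 RPKM (2.18 ± 0.15). Ace, which makes angiotensin II, ran from 6.81 over 11.8 to 20.6 RPKM against 1.57 over 2.49 to 3.16 (2.11 ± 0.14). The collagen gene Col8a1 and the heparan sulfatase gene Sulf1 differed by 2.07 ± 0.13 and 2.06 ± 0.12, and Kl by 1.81 ± 0.15. No overlap between the 6 and the 18 was seen in any of these, but Tmem72, Steap1, Prlr and Col8a1 entered only through the rich libraries and had to differ. At the other end, Stra6, the receptor for retinol-binding protein, differed by 0.40 ± 0.11 with overlapping ranges, and Ttyh1, a channel gene that hippocampal glia also express, stood at a median of 117 RPKM in the rich libraries and 119 RPKM in the others (-0.02 ± 0.03).

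Among transcription factors, Otx2, a homeobox gene needed for the choroid plexus to form and persist (chromosome 14, 49277859 to 49282547, mm9), ran from 3.05 over 4.86 to 9.14 RPKM against 0.0887 over 0.674 to 1.14 (2.31 ± 0.22, SE, n = 24). Msx1, a homeobox gene of the dorsal midline, and Cdkn1c, an inhibitor of the cell cycle, differed by 1.40 ± 0.12 and 1.13 ± 0.13, and for these 3 genes the ranges do not meet. Lmx1a, a homeobox gene of the roof plate from which the plexus arises, was below the filter but did not overlap either, at 0.316 to 0.860 RPKM against 0.0285 to 0.188. Foxj1, the forkhead factor that drives motile cilia, ran from 7.47 over 8.91 to 9.99 RPKM against 2.51 over 5.24 to 8.996 (0.75 ± 0.21), and 1 of the 18 others reached into the rich range. The ciliary regulators Rfx2, Rfx3 and Rfx1 differed by 0.20 ± 0.07, 0.06 ± 0.10 and 0.03 ± 0.04.

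Of 9 junction and keratin genes tested, the pore-forming claudin gene Cldn2 differed most (2.67 ± 0.18, SE, n = 24), at 2.87 over 4.45 to 9.21 RPKM against 0.0898 over 0.237 to 0.768. The keratin gene Krt18 (2.02 ± 0.16), the sealing claudin gene Cldn1 (1.41 ± 0.16), the desmosome gene Perp (0.98 ± 0.11), the serine protease inhibitor gene Spint2 (0.94 ± 0.12) and the membrane linker gene Ezr (0.39 ± 0.06) also lay above the 18 in all 6 libraries. Cldn10, another claudin gene, and Dsp, which encodes desmoplakin and also marks dentate granule cells, differed by -0.00 ± 0.04 and 0.10 ± 0.20. Cldn2 and Krt18 entered only through the rich libraries and had to differ. Among the 7 genes that pass the filter on the 18 others, 1 (Cldn1) was at least 1 higher and 4 did not overlap, with a median of 0.39. With Cldn1 and Cldn10, claudin genes were among both the most and the least different of those 7.

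Transport genes ranged from little difference to the largest of any list. Of 36 listed, 34 were tested, 8 were at least 1 higher and 13 did not overlap, with a median of 0.32. Among the 29 that pass the filter on the 18 others, 4 were at least 1 higher and the median was 0.14. Kcne2, a potassium channel subunit (chromosome 16, 92292634 to 92298378, mm9), had the largest difference of any gene besides Ttr. It ran from 5.80 over 9.55 to 14.4 RPKM against 0.0562 over 0.144 to 1.64 (3.78 ± 0.26, SE, n = 24; 32.5-fold in the means). Kcnj13, the inward rectifier potassium channel of the apical membrane (chromosome 1, 89282859 to 89291304), ran from 7.52 over 12.4 to 24.95 RPKM against 0.0235 over 0.554 to 1.76 (3.75 ± 0.25). Kcne2 was near 0 in most of the 18, whereas Kcnj13 passes the filter on them alone. Clic6 followed at 3.42 ± 0.26, the sodium bicarbonate cotransporter gene Slc4a5 at 3.07 ± 0.19 and Aqp1 at 2.88 ± 0.20. The retinoid transporter gene Abca4, the glucose transporter gene Slc2a12 and the sulfate transporter gene Slc13a4 differed by 1.798 ± 0.12, 1.49 ± 0.14 and 1.38 ± 0.28. In Slc13a4 the ranges overlapped (5.13 to 10.98 RPKM against 0.864 to 5.98). Of these transport genes, Kcne2, Slc4a5, Aqp1 and Abca4 entered only through the rich libraries and had to differ. The sodium pump is known as a motor of fluid secretion, and neurons and glia carry it too. Its beta subunit gene Atp1b1 stood at a median of 828 RPKM in the rich libraries and 822 in the others (-0.01 ± 0.03). The potassium channel gene Kcna1, the organic anion transporter gene Slc22a8 and the peptide transporter gene Slc15a2 differed by 0.02 ± 0.03, 0.03 ± 0.09 and -0.03 ± 0.08. Slc12a2, the NKCC1 cotransporter of the apical membrane and chosen after its values were seen, lay between: 12.9 to 17.1 RPKM against 7.78 to 12.2, with no overlap (0.52 ± 0.08).

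**Figure D2:**
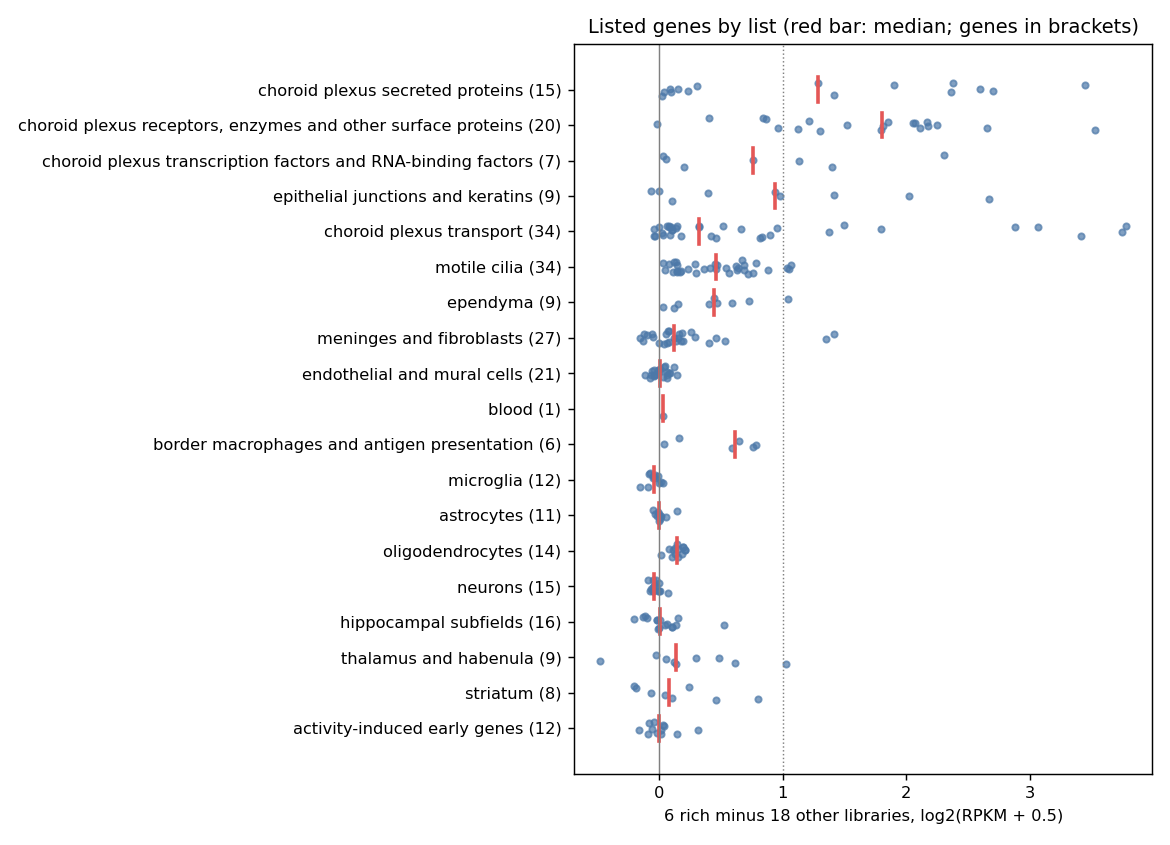
Difference between the 6 choroid plexus rich and the 18 other libraries on the log2(RPKM + 0.5) scale (horizontal axis), 1 point per tested gene of each list, with the list's median as a red bar and lines at 0 and 1. Epithelial lists spread up to 3.78, ciliary and ependymal genes lie mostly between 0 and 1, and the lists of neurons, astrocytes, microglia and vessels stay close to 0.

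Genes of motile cilia were all shifted the same way but by less. Of 48 listed, 46 were found and 34 tested. All 34 had a positive difference with a median of 0.46 (31 of 34 and a median of 0.37 after quantile normalization). Of the 34, 3 were at least 1 higher and 3 did not overlap, against 0.445% and 1.21% of all genes tested. Dynlrb2, a dynein light chain gene, ran from 3.46 over 3.83 to 4.98 RPKM against 0.185 over 1.91 to 4.03 (1.07 ± 0.31, SE, n = 24). Mlf1 (chromosome 3, 67178019 to 67203922, mm9), a gene of ciliated cells, ran from 1.62 over 1.81 to 2.36 RPKM against 0.237 over 0.668 to 1.30 (1.05 ± 0.15) and did not overlap. Cfap126, a cilia and flagella associated protein gene listed as 1700009P17Rik, differed by 1.03 ± 0.25 and the radial spoke gene Rsph1 by 0.88 ± 0.21. The adenylate kinase gene Ak7 differed by 0.78 ± 0.29 and the dynein light intermediate chain gene Dnali1 by 0.72 ± 0.24. In these 4 genes the ranges overlapped. Tekt1, which encodes a tektin of the axoneme (chromosome 11, 72158222 to 72175382), ran from 2.51 over 2.79 to 4.17 RPKM against 0.761 over 1.71 to 2.31 (0.69 ± 0.14) and did not. The smallest differences belonged to the dynein assembly gene Lrrc6 (0.03 ± 0.07), the axonemal dynein genes Dnahc9 (0.05 ± 0.07) and Dnahc1 (0.07 ± 0.07) and Ccdc39 (0.11 ± 0.07), which sets the spacing of dynein arms.

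The promoters of the ciliary genes share letters that the rule for the libraries did not use. The RefSeq table (GRCm38.p6, a build other than the mm9 of the expression table) gave promoters of 300 bases, from 250 before to 50 after the start, for 28 of the 34 genes. The motif GTTGCC, part of the X-box to which RFX factors bind, was searched on both strands and stood in 18 of these 32 promoters (56.2%), against 12.5% of all 32851 promoters of the table. By gene, 7 of 11 ciliary genes with a difference of at least 0.5 and 10 of 17 with a smaller one held it. The OTX2 motif TAATCC stood in 15.6% of the ciliary promoters, 13.8% of the 65 promoters found for 48 of the 60 raised genes, and 7.06% of all. The forkhead motif GTAAACA stood in 6.25%, 3.08% and 3.65%. Among the raised genes, GTTGCC was found in 15.4%. None of the motifs contains another, and a match describes letters alone. The 120 bases before the start are printed for 7 ciliary genes of larger difference that hold the motif, 4 of which (Lrrc23, Iqcg, Lrriq1, Ccdc113) were chosen after their values were seen, with the matches to GTTGCC, its complement GGCAAC or GTAAACA (complement TGTTTAC) in capitals.
Dynlrb2 (chr8:116504895-116505014, strand +): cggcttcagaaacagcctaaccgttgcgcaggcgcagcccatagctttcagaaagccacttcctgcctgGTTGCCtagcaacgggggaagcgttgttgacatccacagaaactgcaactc
Mlf1 (chr3:67373977-67374096, strand +): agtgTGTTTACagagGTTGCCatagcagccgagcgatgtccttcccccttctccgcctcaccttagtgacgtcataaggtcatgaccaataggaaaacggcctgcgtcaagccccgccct
Tekt1 (chr11:72361883-72362002, strand −): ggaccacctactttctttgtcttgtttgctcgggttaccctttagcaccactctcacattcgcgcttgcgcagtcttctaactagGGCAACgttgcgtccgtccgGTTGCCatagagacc
Lrrc23 (chr6:124779728-124779847, strand −): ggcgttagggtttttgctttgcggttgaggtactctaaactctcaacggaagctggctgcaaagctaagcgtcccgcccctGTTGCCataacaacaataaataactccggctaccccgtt
Iqcg (chr16:33056187-33056306, strand −): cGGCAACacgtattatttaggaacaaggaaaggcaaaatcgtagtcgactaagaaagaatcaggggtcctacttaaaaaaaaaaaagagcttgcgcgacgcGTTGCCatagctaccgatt
Lrriq1 (chr10:103236323-103236442, strand −): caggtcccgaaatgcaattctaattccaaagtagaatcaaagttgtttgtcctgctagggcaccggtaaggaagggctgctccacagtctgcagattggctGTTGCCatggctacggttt
Ccdc113 (chr8:95533980-95534099, strand +): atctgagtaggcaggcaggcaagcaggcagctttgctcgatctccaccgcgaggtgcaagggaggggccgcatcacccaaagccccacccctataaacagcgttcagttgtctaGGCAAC
The same window is printed for 3 channel genes of the epithelium, also chosen after their values were seen. Kcne2 and Aqp1 hold 1 match each, and Kcnj13 holds none of the motifs in this window.
Kcne2 (chr16:92292269-92292388, strand +): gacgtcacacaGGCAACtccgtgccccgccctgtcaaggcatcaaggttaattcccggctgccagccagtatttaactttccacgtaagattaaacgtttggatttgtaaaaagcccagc
Aqp1 (chr6:55336179-55336298, strand +): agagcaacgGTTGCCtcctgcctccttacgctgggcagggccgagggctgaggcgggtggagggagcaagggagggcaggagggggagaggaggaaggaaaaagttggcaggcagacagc
Kcnj13 (chr1:87394730-87394849, strand −): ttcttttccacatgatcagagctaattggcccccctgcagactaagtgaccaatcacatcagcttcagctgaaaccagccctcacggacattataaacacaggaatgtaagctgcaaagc
In Tekt1 the matches begin 35 and 15 bases before the start, in Iqcg 119 and 19, in Lrriq1 19, in Lrrc23 39, in Dynlrb2 51, in Ccdc113 6 and in Mlf1 105. In Kcne2 and Aqp1 they begin 109 and 111 bases before it. Position did not part the ciliary from the other raised genes without exception, since in promoters that are not printed GTTGCC begins 41 and 44 bases before 2 of the starts of Otx2 and 10 bases before that of 1110059M19Rik.

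Ependymal genes behaved like the ciliary ones. All 9 tested had a positive difference with a median of 0.44 (8 of 9 with the libraries shifted to equal medians). Of the 9, 1 was at least 1 higher, against 0.445% of all genes tested. That gene, Mia1, which encodes a secreted SH3 domain protein, ran from 2.56 over 2.80 to 3.26 RPKM against 0.616 over 1.24 to 1.82 (1.04 ± 0.15, SE, n = 24). Ccdc153, a coiled-coil gene used as an ependymal marker, ran from 2.61 over 5.74 to 7.68 RPKM in the rich libraries and from 0.556 over 3.10 to 7.81 in the others (0.73 ± 0.37). Its highest value of all came from a library that was not rich, home cage Baf53b+/- mouse 2400, where Ttr was 24.2 RPKM. In that library Foxj1 stood at 8.996 RPKM and Tmem212, another ependymal marker, at 3.98 RPKM, the highest of the 18 for both. Conversely, the 2 libraries with most Ttr, 2424 and 2422, held 3.10 and 2.61 RPKM of Ccdc153, the lowest of the 6.

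Most meningeal and fibroblast genes differed little between the sets. Of 27 tested, 2 were at least 1 higher, against 0.445% of all genes tested, and the median was 0.12. These 2 were Igf2, also on the list of secreted proteins, and Pcolce, an enhancer of procollagen processing. Pcolce ran from 5.36 over 7.67 to 8.94 RPKM against 1.30 over 2.597 to 4.31 (1.35 ± 0.18, SE, n = 24) with no overlap. The proteoglycan genes Lum and Ogn differed by 0.53 ± 0.13 and 0.46 ± 0.22, the matrix Gla protein gene Mgp by 0.40 ± 0.22 and the collagen gene Col1a2 by 0.29 ± 0.20, all with overlapping ranges. The proteoglycan gene Dcn ran from 5.21 over 9.84 to 15.2 RPKM in the rich libraries and from 4.12 over 7.11 to 40.5 RPKM in the others (0.13 ± 0.40). Its highest values, 40.5 and 31.6 RPKM, were in libraries 2421 and 2415, where Ttr was 21.3 and 7.78 RPKM. The retinaldehyde dehydrogenase gene Aldh1a2, the collagen gene Col6a2, the retinoic acid binding protein gene Crabp2 and the organic anion transporter gene Slc22a6 differed by 0.04 ± 0.26, -0.13 ± 0.16, -0.13 ± 0.25 and -0.15 ± 0.22.

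Of 6 genes tested among border macrophages and antigen presentation, the 4 of the class II pathway differed most: H2-Ab1 by 0.79 ± 0.17, the invariant chain gene Cd74 by 0.76 ± 0.22, H2-Aa by 0.64 ± 0.18 and H2-Eb1 by 0.58 ± 0.13 (SE, n = 24). Their ranges overlapped; H2-Ab1 ran from 0.970 over 1.78 to 2.89 RPKM against 0.373 over 0.730 to 1.28. The macrophage mannose receptor gene Mrc1 differed by 0.04 ± 0.10, and the border macrophage markers Pf4, Lyve1 and Cd163 were below the filter in both sets. Microglial genes did not share the shift (median of 12 genes -0.04).

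Lists of other cells of the tissue lay near 0. The median was 0.01 over 21 endothelial and mural genes, with Cldn5, the claudin of brain vessels, at 15.9 over 17.98 to 22.2 RPKM against 14.3 over 18.1 to 22.9. It was -0.00 over 11 astrocyte genes and -0.04 over 15 neuronal genes. The summed RPKM of the neuronal list was 4926 to 5230 in the rich libraries and 4833 to 5568 in the others. All 14 oligodendrocyte genes were slightly positive (median 0.14; 13 of 14 with equal medians), with overlapping sums of 2131 to 3041 and 1374 to 2784 RPKM. Of the 8 blood genes, 1 was tested. Of 9 thalamic and habenular genes tested, 7 had a positive and 2 a negative difference, with a median of 0.13, and 1 was at least 1 higher. That gene, Zic1, a zinc finger gene of the thalamus, septum and also meninges, ran from 4.31 over 12.3 to 15.4 RPKM against 2.31 over 3.84 to 14.8 (1.02 ± 0.35), with 14.8 in library 2400. Of 8 striatal genes tested, none was at least 1 higher and the median was 0.07. Ppp1r1b, which encodes DARPP-32, stood above all others in the 6 (36.6 to 53.6 RPKM against 25.03 to 34.8; 0.46 ± 0.07), while the dopamine receptor gene Drd1a differed by -0.07 ± 0.08. The part of neighbouring tissue in the differences was not tested.

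No lower genes stood out. The most negative differences were those of the Y-linked Eif2s3y (-0.70 ± 1.19, SE, n = 24) and Ddx3y (-0.61 ± 1.12), followed by the habenular neuropeptide gene Tac2 (-0.48 ± 0.19), the Y-linked Kdm5d (-0.44 ± 0.77), Wdfy1 (-0.40 ± 0.21), the row listed as Mir207 (-0.39 ± 0.29) and the Y-linked Uty (-0.37 ± 0.69). In the Y-linked genes the SE exceeded the difference. Wdfy1 stood at 5.62 to 6.38 RPKM in 5 of the 18 others, 2414, 2401, 2417, 2415 and 2421, and at no more than 2.74 RPKM in the other 19 libraries.

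Of the 59 raised genes besides Ttr, 16 were on no list. The largest was 1110059M19Rik, a short gene on chromosome X, at 2.82 over 4.18 to 10.6 RPKM against 0.0832 over 0.198 to 0.816 (2.78 ± 0.21, SE, n = 24). C1qtnf5, whose product is secreted by retinal pigment epithelium, differed by 2.20 ± 0.31 with an overlap (0.0389 to 4.44 RPKM in the others). Ccdc135, a gene of the axonemal dynein regulatory complex, differed by 1.97 ± 0.22, the collagen gene Col8a2 by 1.77 ± 0.16, the phospholipase gene Pla2g5 by 1.46 ± 0.10, the endocytic adaptor gene Epn3 by 1.40 ± 0.12, the paraoxonase gene Pon3 by 1.31 ± 0.09 and the semaphorin gene Sema3b by 1.30 ± 0.13. The ranges of these 6 genes did not overlap, as in 1.21% of all genes tested. Of the genes named here, 1110059M19Rik, Pla2g5 and Epn3 entered only through the rich libraries and had to differ. The uncharacterised transcript A230065H16Rik differed by 1.04 ± 0.45 but was highest of all in library 2400, at 7.07 RPKM, and lowest of the 6 in library 2424, at 0.563 RPKM.

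Within the 6 rich libraries the raised genes could be compared with the height of Ttr itself. For each of the 59 genes besides Ttr, the rise above the median of the 18 others was divided by the rise of Ttr in the same library. The coefficient of variation of this ratio over the 6 libraries had a median of 17.9% and ran from 4.52% (Epn3) to 91.3% (A230065H16Rik). It was 6.33% for Cldn2, 6.94% for Folr1, 7.08% for Otx2, 8.86% for Kl and 12.9% for Enpp2. Folr1 added 5.36 to 6.39 RPKM per 1000 RPKM of Ttr and Enpp2 134 to 201 RPKM. Other genes of the choroid plexus lists kept a looser proportion, with a coefficient of 19.8% for Aqp1, 21.4% for Kcne2, 29.5% for Slc13a4, 30.9% for the serotonin receptor gene Htr2c and 33.7% for Prlr. The coefficient was 42.6% for Mlf1, 43.9% for Mia1, 53.7% for Dynlrb2 and 77.8% for Zic1. For those 4 genes library 2424, with most Ttr, had the lowest ratio. It also had the lowest ratio for Folr1, Otx2, Kl and Enpp2, but there it fell less far. Per 1000 RPKM of Ttr, Zic1 added 0.104 RPKM in 2424 against a median of 5.22 over the 6, and Dynlrb2 0.341 against 1.20. Folr1 added 5.36 against 5.95. Of the 59 genes, 50 were highest in 2424, and 35 were lowest in 2429 and 16 in 2412, the 2 rich libraries with least Ttr. In 2424 itself 5 of the genes were lowest of the 6, Mlf1, Mia1, Dynlrb2, Zic1 and A230065H16Rik.

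**Figure D3:**
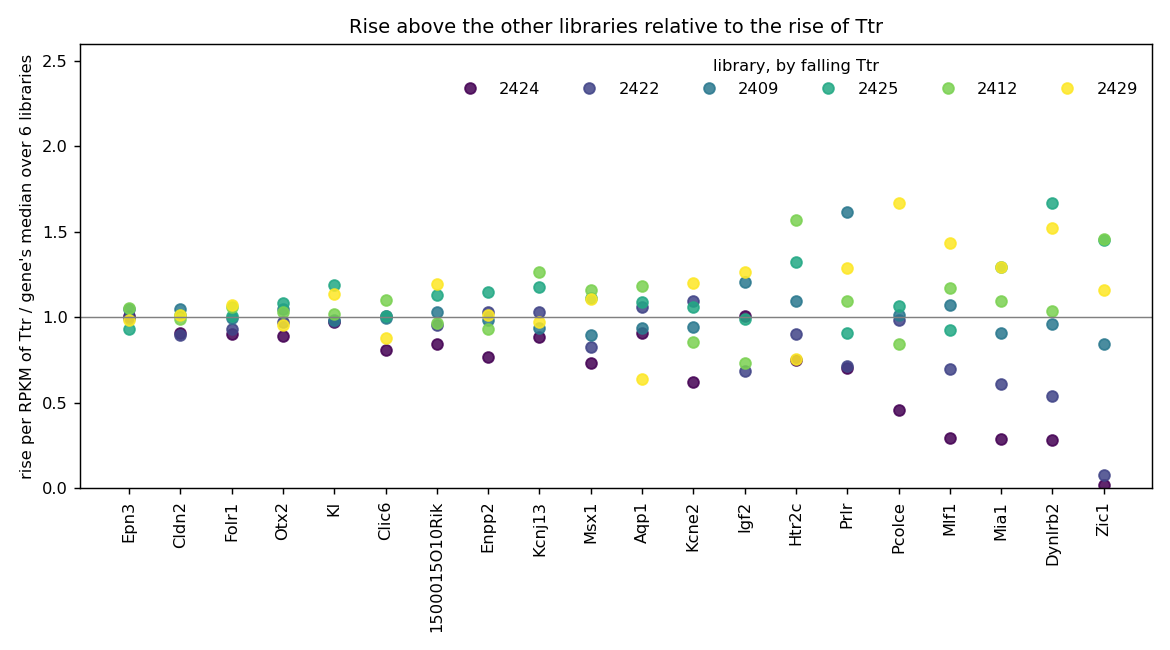
Rise of 20 genes above the median of the 18 other libraries, divided by the rise of Ttr in the same library and by the gene's median of that ratio (vertical axis), 1 point per gene for each of the 6 rich libraries. Epn3, Cldn2, Folr1 and Otx2 lie close to 1. Library 2424, which has most Ttr, is lowest for Folr1 and Otx2 too, but lies much farther below 1 for Mlf1, Mia1, Dynlrb2 and Zic1.

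The 3 libraries of intermediate Ttr were set apart by their Ttr after the data were seen. Their values also entered the differences that picked the 59 genes, so the counts here are descriptions and no test. In 13 of the 59 genes, Kcnj13, Kcne2, Aqp1, Slc4a5, Kl and Enpp2 among them, libraries 2407, 2436 and 2417 all lay above the other 15. The same was true of 21 of all 13490 genes tested (0.156%). Slc4a5 stood at 0.736, 0.460 and 0.402 RPKM in them, and at 0.138 RPKM or less in the 15. Kcnj13 stood at 1.76, 1.25 and 1.15 RPKM in them.

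Relations to Ttr were tested within each side of the threshold for 12 genes, on log2(RPKM + 0.5). The 24 relations were adjusted together by the Benjamini-Hochberg method. The 12 genes were chosen with earlier results of these data known, the given markers among them, so their p-values are no independent support for the label. In the 18 other libraries, 6 genes passed: Aqp1 (Pearson r = 0.913, rho = 0.822), Folr1 (0.847 and 0.794), Clic6 (0.821 and 0.806), Enpp2 (0.783 and 0.647), Kl (0.769 and 0.651) and Otx2 (0.559 and 0.507). The raw permutation p of r was 1e-05 for Aqp1, Folr1 and Clic6, the smallest that 100000 resamples can give, with an adjusted p of 8e-05. For Kl the two-sided permutation p was 0.00031 (adjusted 0.00149), and for Otx2 it was 0.0152 (adjusted 0.0305), where rho did not pass (permutation p = 0.0344, adjusted 0.0634). Foxj1 (r = 0.403, rho = 0.331, permutation p = 0.0947, adjusted 0.162), Dcn (-0.331 and -0.284, permutation p = 0.175, adjusted 0.28) and Igf2 (0.11 and 0.16, permutation p = 0.667, adjusted 0.762) did not pass. With deviations from group means in place of the values, Dcn passed (r = -0.561, adjusted permutation p = 0.0264). The vascular Cldn5, the astrocytic water channel gene Aqp4 and the neuronal Snap25 had r of -0.185, -0.123 and 0.0386, with permutation p from 0.458 to 0.879.

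These relations leaned in part on the intermediate libraries. Without 2407 and 2436, the libraries farthest from the median Ttr, r stayed past the threshold for Folr1 (0.781), Aqp1 (0.803) and Clic6 (0.659), and that of Kl fell to 0.593 (adjusted permutation p = 0.0961). Enpp2 and Otx2 no longer passed either (r = 0.493 and 0.467), with fewer libraries in the test. Over the 15 libraries without any intermediate one, Folr1 (r = 0.798, adjusted permutation p = 0.00576) and Foxj1 (r = 0.622, adjusted permutation p = 0.0381, rho = 0.407) passed. Otx2 kept r = 0.552 there, near its 0.559 over the 18, but did not pass (adjusted permutation p = 0.0651). Aqp1 and Clic6 fell to r = 0.571 and 0.566 and did not pass (adjusted permutation p = 0.0601 for each). Kl and Enpp2 fell to r = 0.478 and 0.349. The 3 libraries with least Ttr, at 7.78 to 8.69 RPKM, held 2.51 to 4.48 RPKM of Foxj1.

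Within the 6 rich libraries the order of Ttr was repeated by Folr1, Otx2, Clic6, Enpp2 and Aqp1 without exception (rho = 1.0, exact permutation p = 0.00278, adjusted 0.00833). Pearson's r was 0.999 for Folr1, 0.996 for Otx2, 0.989 for Kl, 0.982 for Clic6, 0.977 for Enpp2 and 0.938 for Aqp1, with two-sided exact permutation p from 0.00139 to 0.00417 (adjusted 0.0037 to 0.00909). Igf2 followed at r = 0.896 (exact permutation p = 0.0208, adjusted 0.0385), but its rho of 0.886 did not pass (exact permutation p = 0.0333, adjusted 0.0634). Foxj1 (r = 0.0483, rho = 0.0286, exact permutation p = 0.933) and Dcn (r = -0.478, rho = -0.429, exact permutation p = 0.338) showed no detectable relation. When 2424 and 2429 were left out, r was between 0.964 and 0.996 for the 6 epithelial genes and 0.764 for Igf2, but 4 libraries cannot reach the threshold once adjusted.

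**Figure D4:**
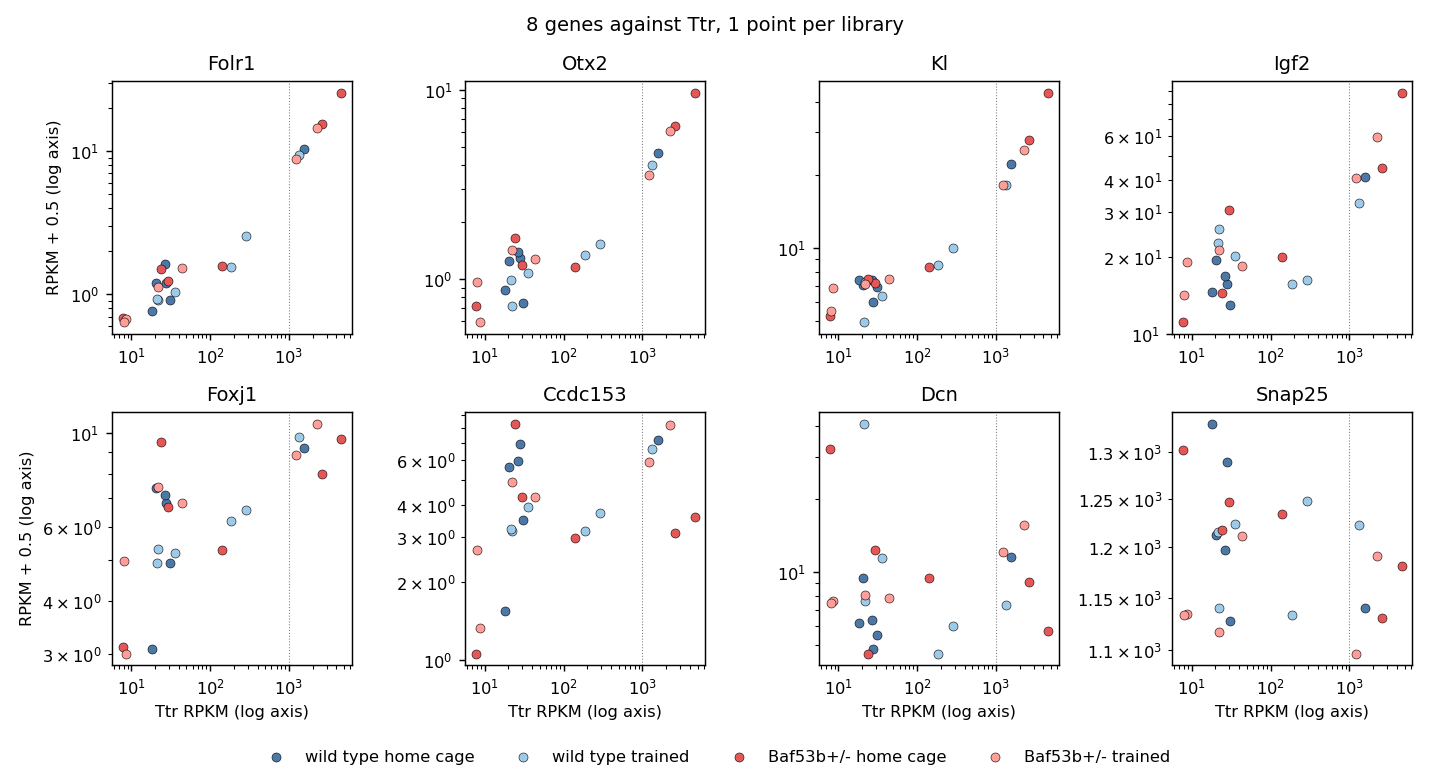
RPKM + 0.5 of 8 genes (vertical, log axis) against RPKM of Ttr (horizontal, log axis), 1 point per library, coloured by group, with a dotted line at 1000 RPKM. Folr1, Otx2 and Kl climb with Ttr among the 6 libraries to the right of the line, whereas Foxj1, Ccdc153, Dcn and Snap25 show no order there.

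The labelled comparisons ask whether genotype or training moved the choroid plexus transcripts. Training, averaged over the genotypes, was called by limma with a Benjamini-Hochberg adjusted p under 0.05 in 525 genes (3.89%; 410 higher and 115 lower), and genotype in 4 (0.0297%). None of the 85 tested choroid plexus and epithelial genes was among either, none had an unadjusted p under 0.05 in either comparison or in their interaction, and the interaction called 0 of all genes (346 at an unadjusted p under 0.05). By p the nearest for training was Slc5a5, the iodide transporter gene (0.25 ± 0.13, SE; limma adjusted p = 0.358), and for genotype Slc12a4, a potassium chloride cotransporter gene (0.11 ± 0.07; limma adjusted p = 0.999). No ciliary, ependymal or meningeal gene passed either. Fos, Arc and Egr1, early genes of neuronal activity, rose with training by 2.56 ± 0.13, 1.94 ± 0.10 and 1.23 ± 0.05, and all 12 early genes listed passed, whereas their median difference between rich and other libraries was -0.01. Actl6b was lower in heterozygotes by -0.80 ± 0.03 (limma adjusted p = 2.39e-16).

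The choroid plexus rich libraries were unevenly placed, 4 in heterozygotes and 2 in wild types. The part of this placement in the genotype estimates was not tested. Over the 85 choroid plexus and epithelial genes the genotype difference had a median of 0.17 and a median SE of 0.18. Many of these genes rose together with Ttr, so they are not separate observations. Ttr itself differed by 0.57 ± 1.26 and Folr1 by 0.58 ± 0.69, within their errors. The sign of Ttr turned to -0.45 ± 0.51 with choroid plexus rich or not as a covariate, and to -0.80 over the 18 other libraries. Both settings are cut from Ttr itself. Changes in the estimates and SE of Ttr and of genes that follow it were thus built in, and carry no verdict on genotype. With the covariate Folr1 differed by -0.01 ± 0.21, Kl by 0.06 ± 0.13 in place of 0.37 ± 0.36, and the median over the 85 was 0.03 with a median SE of 0.10. Over all genes the median SE was 0.04 in both models. Neither the covariate nor leaving out the 6 libraries brought any of the 85 past the threshold in either comparison. Without the 6 libraries, training called 263 genes, 239 of them among the 525, with fewer animals in the fit.

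**Figure D5:**
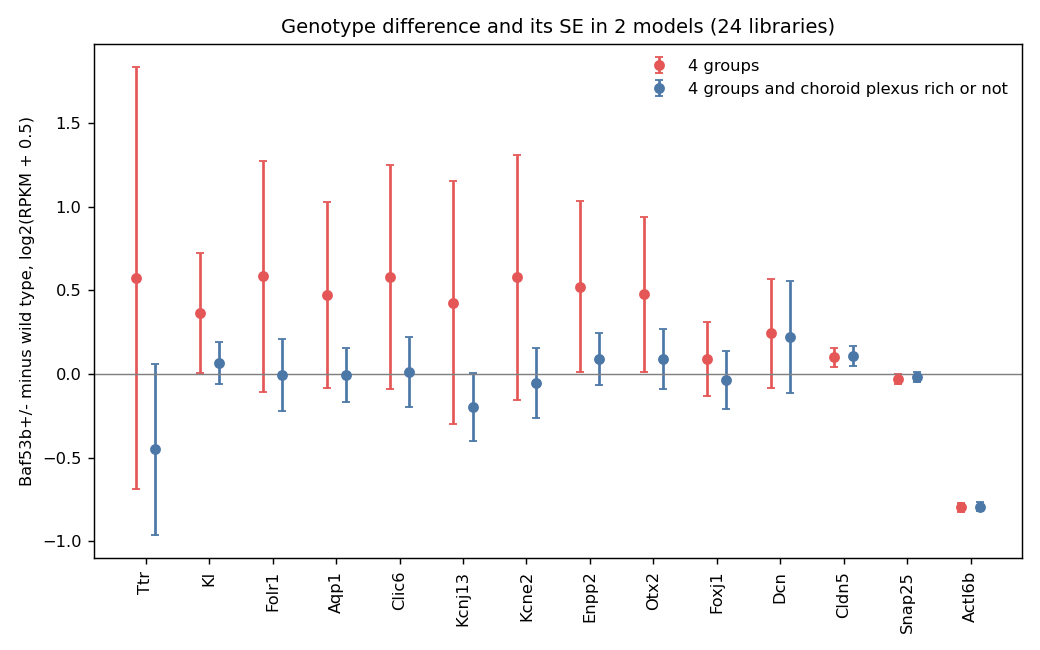
Baf53b+/- minus wild type on the log2(RPKM + 0.5) scale for 14 genes over 24 libraries, with 1 SE as the bar, in a model of the 4 groups (red) and in one that adds choroid plexus rich or not (blue). The bars of Kl, Folr1, Aqp1, Clic6 and Otx2 shorten and their points move toward 0, whereas Snap25 and Actl6b hardly change. The added term is cut from Ttr, so a change in genes that follow Ttr was built in.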

How the data were processed

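RNA of the bilateral dorsal hippocampus was isolated on RNeasy columns and made into libraries by the TruSeq RNA v2 protocol without strand marking. Per the labels' protocols, 4 pools were read in single-end runs of 50 cycles on a HiSeq instrument. The pool of each mouse is not stated, and no batch was fitted. The authors deposited a table of RPKM values for 19661 genes with mm9 positions, 1 column per animal. CASAVA 1.8.2 and Bowtie 0.12.8 are listed in the submitters' processing notes. The annotation and the counting of reads shared between genes are not stated, and genes that overlap or run antisense cannot be separated. Of the gene names, 18 had become dates and 17 entries repeated a name; they stayed in under their positions.

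RPKM values were not counts, so no count test was used. In 971 single-exon genes of up to 30 reads, the read total was found at which most values came within 0.05 reads of a whole number (46.9% to 56.6%, against a median over the totals tried of at most 8.3%). Depth over the 24 libraries was 28.44 to 46.88 M reads, and it bounds the precision of low values. No 2 libraries were identical.

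Genes averaging 0.5 RPKM or more were fitted on log2(RPKM + 0.5), a scale that understates the change of low genes, with limma 3.58.1 in R 4.3.3 (trend and robust settings, 4 groups, 24 libraries). The fit and the relations were tested on simulated data. Relations used scipy 1.17.1, exact over all orders for 6 libraries. Differences between rich and other libraries were fitted with the groups as covariate, with no test. The labels give 1 mouse per library, so p-values measure the spread between mice. The members, the lists of genes, the genes related to Ttr and the motifs were chosen with earlier results of these data known. Named genes are the 5 markers, up to 8 of largest and 4 of smallest or most negative difference in a list, 25 rises and 10 falls outside the lists, and in labelled comparisons those that passed or up to 2 by p, with Fos, Arc, Egr1 and Actl6b; others are said to be chosen after their values were seen, as were Dcn and the promoters shown. Alternatives were pseudocounts of 0.1 and 1, filters, scalings, no covariate, libraries left out, and empirical Bayes settings. Promoters came from RefSeq, matched by symbol or an unambiguous older symbol.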

Additional observations from a re-analysis of the deposited data

Results flagged for a closer look

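In each group of 6 mice, the highest and lowest library were compared with their nearest neighbour for 14 genes, 56 pairs of gene and group in all. In 21 pairs 1 library stood apart from its group (Dixon's test at the 95% level, which chance alone would pass in about 5% of groups), and in 18 of them that library was choroid plexus rich. The split that defined those libraries was made on Ttr, so their flags describe the same contrast.

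In home cage wild-type mice, library 2425 stood apart for Ttr (1555 RPKM; next 30.6), Kl (21.6; next 6.88), Folr1 (9.82; next 1.12), Aqp1 (3.83; next 0.136), Clic6 (10.9; next 1.19), Kcnj13 (11.5; next 0.570), Enpp2 (376; next 73.5), Otx2 (4.15; next 0.889) and Igf2 (40.6, well above the next).

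In trained wild-type mice, library 2412 stood apart for Ttr (1337 RPKM; next 288), Folr1 (8.95; next 2.06), Aqp1 (3.58; next 0.701), Clic6 (10.3; next 2.52), Kcnj13 (10.6; next 1.76), Enpp2 (283; next 116), Otx2 (3.502; next 1.04) and Foxj1 (9.28; next 6.08).

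In trained Baf53b+/- mice, library 2409 stood apart for Aqp1 (4.80 RPKM; next 1.81). The flags outside the rich libraries were Dcn in home cage Baf53b+/- mouse 2415 (31.6 RPKM; next 11.9) and in trained wild-type mouse 2421 (40.5; next 10.98), and Cldn5 in home cage Baf53b+/- mouse 2401 (22.2; next 19.1).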

How the results depend on the processing

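No paired analysis was possible because the numbers in the labels name single animals and no number is shared between groups. Of the gene and summary values recomputed, 519 kept their direction and size or side of the threshold and 35 did not, with 0 reversed. The genes at least 1 higher numbered 60, 95 with a pseudocount of 0.1, and 53 to 67 when each rich library was left out. The genes at least 1 lower numbered 0, 1 with a pseudocount of 0.1, and 0 to 3 with a library left out (3 without 2425). The genes with all rich libraries above numbered 165 to 214 with a library left out, and those with all below 0 to 1 (1 without 2412 or without 2429) and 1 after quantile normalization. Without the 6 rich libraries, 263 genes were called for training and 2 for genotype, in a fit of fewer samples. Relations to Ttr past the threshold among the 18 fell from 6 to 3 without the 2 libraries farthest from the median, and to 2 without the 3 libraries over 100 RPKM (an alternative chosen after seeing the data, as was limiting the others to the 15, where 60 genes were at least 1 higher, 59 of them the same). Among the 6 they fell from 7 to 0 without the 2 farthest, since 4 libraries cannot pass. With deviations from group means, Dcn fell with Ttr (r = -0.561, permutation test, adjusted p = 0.0264). A pseudocount of 0.1 gave Kcnj13 a difference of 4.58 and Aqp1 4.16. Depth limits genes under 0.5 RPKM, Lmx1a among them, and rich libraries were too few for a fit within any group.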
